A study of Mus musculus with 20 samples.

Results

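The Nodal pathway genes examined here were Nodal, Tdgf1, Lefty1 and Lefty2, and the members were all accessible regions within 20 kb of the spans of these 4 genes. Accessible regions were built by merging ATAC-seq peaks that overlapped by at least 1 bp in any of 20 libraries, and 48 of the 335858 regions in the genome lay in these windows. Of the 48, 9 lay nearest to Nodal, 11 to Tdgf1, 14 to Lefty1 and 14 to Lefty2. ATAC-seq uses the Tn5 transposase to cut and tag accessible DNA. The libraries came from mouse embryonic fibroblasts (MEF, 1 library), from embryonic stem cells (ESC, 3 libraries) and from MEFs reprogrammed with retroviral Oct4 and either native Nanog (Nanog+Oct4) or NanogN70 (NanogN70+Oct4), with 1 library per path on day 0, on day 1, at every odd day from 3 to 7, and then on days 8, 10 and 12. In NanogN70 the N-terminus of NANOG is joined to the part of SS18 that binds BRG1, the ATPase of the BAF chromatin remodeler. All MEFs, transduced or not, and the ESCs carried the Oct4-GFP reporter allele OG2. The MEFs were from midgestation embryos of OG2 males and 129 females, and day 0 followed the end of viral infection. In the paper's protocol, cultures go from the induction medium iCD3 to N2B27 with 2i and LIF, the medium of the ESCs. The switch came after 7 days or at another planned time, and the paper does not give its day for these cultures. The viruses were pMXs vectors, so a transduced culture may hold cells with and without each factor. For the 3 ESC samples the title says ESC but other fields of the record say MEF, and the title was used.

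Nodal is a secreted ligand of the TGF-beta family. It signals through activin receptors with the help of the membrane-anchored co-receptor that Tdgf1 encodes (also called Cripto), and the signal is carried to the nucleus by SMAD2, SMAD3 and SMAD4, which bind DNA together with partners such as FOXH1. Lefty1 and Lefty2 encode secreted inhibitors that block the ligand and its co-receptor and are themselves induced by the pathway, which closes a negative feedback loop. The pathway patterns the early embryo, where it specifies mesendoderm and the left-right axis, and all 4 genes are known to be expressed in pluripotent cells.

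The gene models place Nodal on chr10:61417972-61425338 (plus strand), Tdgf1 on chr9:110939603-110946158 (minus strand), Lefty2 on chr1:180893108-180899103 and Lefty1 on chr1:180935022-180938400 (both plus strand), in mm10. Lefty2 and Lefty1 are 35.9 kb apart. Regions are named below by gene and by the distance of the summit from the 5-prime end of the gene span, negative values lying upstream. The position is that of the ESC summit where an ESC library had a peak. Regions within 2 kb of an annotated start site of their gene were called promoter regions, 9 in all, and the other 39 were called distal.

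The windows below are shown because the results turn on them. The Nodal -1.9 kb and Lefty1 -10.1 kb regions had peaks in all 3 ESC libraries and none in MEF, the Lefty2 -4.4 kb region was among the strongest ESC regions, Tdgf1 +1.1 kb had peaks in the time course alone, and Lefty2 +20.8 kb had its highest value in MEF. Each window holds 300 bases around the summit, read from GRCm38 (the assembly that mm10 names). The stretch upstream of the Tdgf1 start site is from the RefSeq promoter table for that assembly, which also holds Nodal. Capitals mark the letters of searched motifs, or, in windows without a match, the summit base with 10 bases on each side.
Nodal -1.9 kb (capitals: summit), chr10:61415892-61416191, plus strand: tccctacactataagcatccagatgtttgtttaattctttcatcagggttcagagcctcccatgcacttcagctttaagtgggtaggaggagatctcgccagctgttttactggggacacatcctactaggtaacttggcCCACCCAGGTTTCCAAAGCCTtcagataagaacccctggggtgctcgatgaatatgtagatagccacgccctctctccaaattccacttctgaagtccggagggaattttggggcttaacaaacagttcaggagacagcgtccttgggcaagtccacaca
Tdgf1 +1.1 kb (capitals: SOX), chr9:110944932-110945231, plus strand: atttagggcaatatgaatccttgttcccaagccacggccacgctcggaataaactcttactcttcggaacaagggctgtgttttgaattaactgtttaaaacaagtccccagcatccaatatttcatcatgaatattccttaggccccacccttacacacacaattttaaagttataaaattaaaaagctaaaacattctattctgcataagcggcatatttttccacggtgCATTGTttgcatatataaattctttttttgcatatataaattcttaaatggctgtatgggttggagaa
Tdgf1, 250 bases before the start site (capitals: FOXH1), chr9:110946159-110946408, minus strand: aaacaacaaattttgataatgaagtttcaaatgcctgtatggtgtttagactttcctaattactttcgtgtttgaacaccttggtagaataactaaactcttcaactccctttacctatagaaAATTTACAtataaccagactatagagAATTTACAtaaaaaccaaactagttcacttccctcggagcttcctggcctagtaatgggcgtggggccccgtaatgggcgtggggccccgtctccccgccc
Lefty1 -10.1 kb (capitals: FOXH1 at 2 places, then SOX), chr1:180924804-180925103, plus strand: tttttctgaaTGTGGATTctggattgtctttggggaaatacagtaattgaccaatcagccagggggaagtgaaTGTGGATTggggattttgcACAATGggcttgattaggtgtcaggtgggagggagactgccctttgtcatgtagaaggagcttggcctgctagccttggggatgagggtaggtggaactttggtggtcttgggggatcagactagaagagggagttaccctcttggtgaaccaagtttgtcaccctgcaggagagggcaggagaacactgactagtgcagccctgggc
Lefty2 -4.4 kb (capitals: summit), chr1:180888576-180888875, plus strand: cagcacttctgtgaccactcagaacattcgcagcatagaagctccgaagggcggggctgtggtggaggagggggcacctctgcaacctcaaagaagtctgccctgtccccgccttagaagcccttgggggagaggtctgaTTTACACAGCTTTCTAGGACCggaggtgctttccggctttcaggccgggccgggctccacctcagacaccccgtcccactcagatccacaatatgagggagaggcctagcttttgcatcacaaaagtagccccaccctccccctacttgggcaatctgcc
Lefty2 +20.8 kb (capitals: FOXH1, then FOXH1 and SOX overlapping), chr1:180913807-180914106, plus strand: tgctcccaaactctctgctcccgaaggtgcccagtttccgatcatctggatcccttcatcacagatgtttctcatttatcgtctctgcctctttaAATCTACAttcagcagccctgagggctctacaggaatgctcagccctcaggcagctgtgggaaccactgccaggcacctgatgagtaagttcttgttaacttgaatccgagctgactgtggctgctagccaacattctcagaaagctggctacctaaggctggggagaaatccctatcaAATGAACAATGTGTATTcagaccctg

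Letters were searched on both strands for OCT (ATGCAAAT), SOX (CATTGT), the OCT-SOX composite (the SOX letters, 1 base, the OCT letters), FOXH1 (TGTNNATT), the SMAD palindrome (GTCTAGAC), ESRRB (TCAAGGTCA), KLF (GGGTGTGGC), TCF/LEF (CTTTGAT) and AP-1 (TGANTCA). The Lefty1 -10.1 kb window held the FOXH1 letters at 2 places, both as the same word, and the SOX letters at 1 place downstream of them. The Lefty2 +20.8 kb window, from a region with a MEF peak and no ESC peak, held the FOXH1 letters at 3 places. Its SOX letters, at 1 place, overlapped 2 of these. FOXH1 letters stood in 3 of the 15 ESC-only windows (20%) and in 7 of all 48 (14.6%), against 19.1% of the same-length windows at all regions, so their share was near the background. The 3 ESC-only windows were Lefty1 -10.1 kb, Lefty1 -0.4 kb and Nodal +22.6 kb. The 250 bases before the Tdgf1 start site held the FOXH1 letters 2 times, and 10.9% of all such stretches in the promoter table held them. This stretch does not reach the ESC summit of Tdgf1 -1.5 kb, and the window at that summit held none of the searched letters. SOX letters stood in 6 of 48 windows (16.9% of all regions), AP-1 letters in 5 (20.6%) and TCF/LEF letters in 2 (5.01%). No window of the 48 held the OCT letters (3.53% of all regions), the ESRRB letters (0.703%), the KLF letters (1.23%), the SMAD palindrome (0.326%) or the composite (0.00268%).

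Depth was read from the files only indirectly, because read numbers were not part of the data analysed here. Peaks per library numbered 125467 in MEF, 97450 to 116006 in the ESC libraries, 48843 to 91745 in the Nanog path and 44126 to 107038 in the NanogN70 path. To set libraries side by side, the pileup at a summit (tags covering it) was divided by the median pileup of the same library over the 14217 regions found in all 20 libraries, which ranged from 16 to 60 tags. The ratio is called relative pileup below, 0 stands for no peak, and a region with a peak is called open in that library. A region without a peak may be accessible below the detection limit of that library, and an accessible fraction of cells cannot be told apart from partial accessibility in all cells. Fibroblast markers had promoter peaks in 8 of 8 cases in MEF and in 7 of 8 in each ESC library, with summed relative pileups of 8.74 and of 3.21 to 3.66. ESC markers had promoter peaks in 9 of 9 cases in each ESC library and in 4 of 9 in MEF, with sums of 11.8 to 12.9 and of 0.974. On days 0 and 1 the sums were higher than in ESCs, at 33.3 and 16.1 in the Nanog path and 15.8 and 14.7 in the NanogN70 path, although peaks stood at only 3 or 4 of the 9 promoters. Among these was Nanog, the gene that the viruses also carried. How far it made up the sums was not tested, so they are not read as ESC-like accessibility of the list. The NanogN70 day 3 library stood apart: it had promoter peaks at 8 of 8 leukocyte markers, with a summed relative pileup of 8.2 against 1.3 to 3 in the other 19 libraries. Of its regions, 23.3% were found in no other library, against at most 14.3% on any other day of either path and 29% in MEF. The main counts and the regions with the lowest p are given without day 3 as well, a choice made after the data were seen.

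At least 2 of the 3 ESC libraries had a peak at 26 of the 48 regions, against 27.0% of all regions. With equal numbers of top-scoring peaks per library these were 15 of 34, and with a minimum score of 100 they were 19 of 38. Of these, 15 had no MEF peak and were called ESC-only (16.5% of all regions), and 11 had a MEF peak as well. MEF had a peak at 18 regions (34.0% of all), and 6 of them had no peak in any ESC library and were called MEF-only (22.2% of all). A further 12 regions had peaks in the time course and in neither MEF nor ESC (38.7% of all). In 13 regions the peak came from 1 library only (41.4% of all), and 7 of those were in NanogN70 day 3 (5.32% of all).

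At 17 of the 26 ESC regions every ESC library lay above each of the 16 time course libraries in relative pileup (41.0% of all ESC regions). They were 5 of the 6 ESC regions at Nodal, 2 of 5 at Tdgf1, 5 of 8 at Lefty1 and 5 of 7 at Lefty2. Without NanogN70 day 3 the count was 18, the added region being Tdgf1 -1.5 kb. The heatmap of all 48 regions shows the ESC columns as the brightest at most upstream regions, and a filled block around the Tdgf1 start site in the NanogN70 columns.

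**Figure D1:**
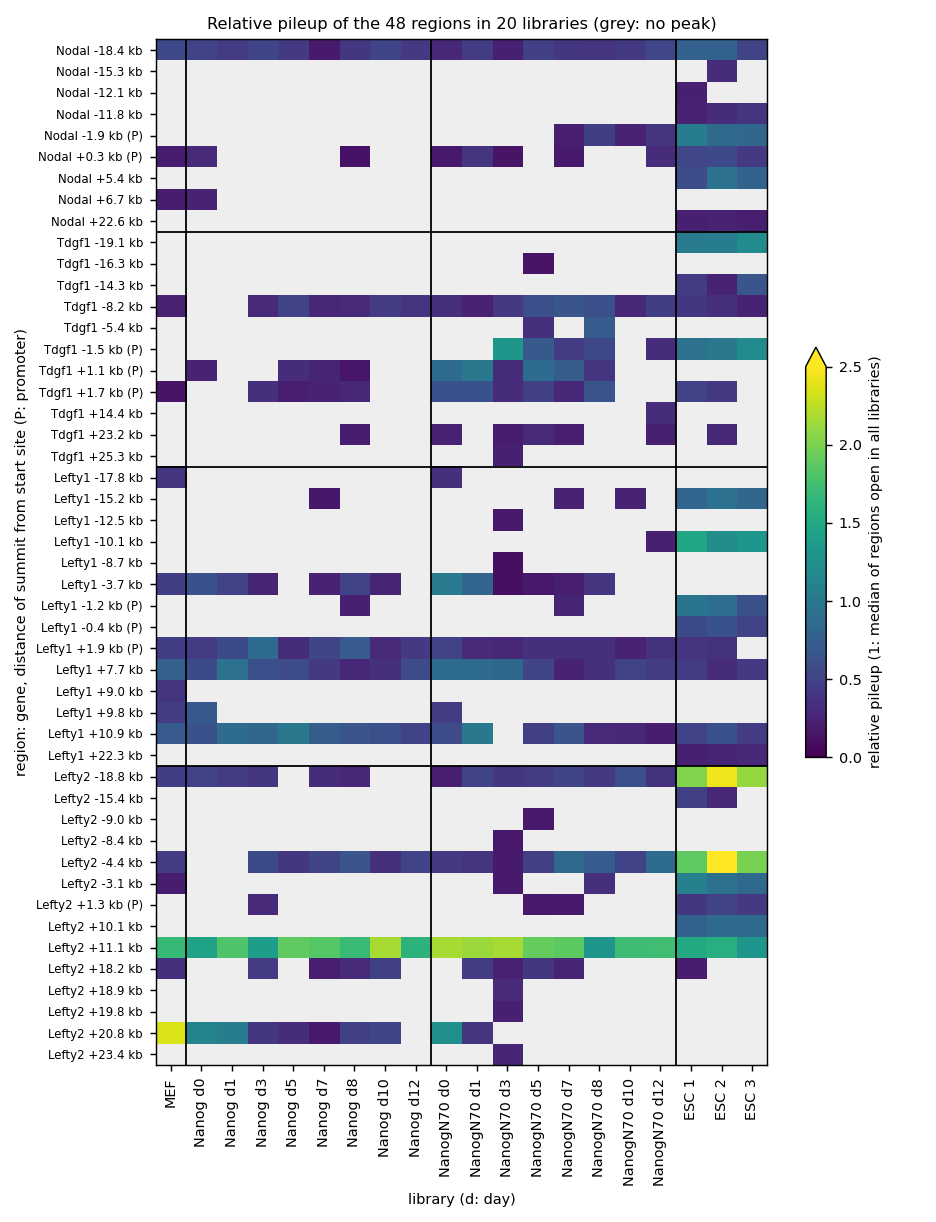
Relative pileup (colour; grey is no peak) of the 48 regions (rows, by gene and distance of the summit from the start site in kb, P for promoter regions) in the 20 libraries (columns: MEF, Nanog path by day, NanogN70 path by day, ESC). ESC signal at Lefty2 -18.8 kb and -4.4 kb is the brightest of the ESC columns, while 12 regions are coloured in time course columns alone.

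Nodal, the ligand gene, had 9 regions, of which 6 were open in ESC and 4 were ESC-only. The ESC-only region Nodal -1.9 kb (chr10:61415245-61416917, intergenic) is the promoter-proximal element whose window is printed above. Its relative pileup was 1.06, 0.868 and 0.828 in the 3 ESC libraries (0.92 ± 0.126, SD, n = 3), and MEF had no peak. In the NanogN70 path it had no peak until day 5 and then 0.211 on day 7, 0.462 on day 8, 0.25 on day 10 and 0.39 on day 12. None of the 8 Nanog libraries had a peak there. All 4 NanogN70 values were below the lowest ESC value, and the peaks covered the ESC summit on 3 of the 4 days, day 10 being the exception. The mean difference over the 8 days (NanogN70 minus Nanog) had an exact p of 0.125 in the sign-flip test described below (adjusted p = 0.447). With 4 days that differed between the paths, 0.125 was the smallest p this region allowed, so the test could not have called it.

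At the Nodal start site itself, the region Nodal +0.3 kb (chr10:61417755-61418780, summit in the Nodal UTR) was open in all groups. Its relative pileup was 0.531, 0.553 and 0.414 in ESCs and 0.205 in MEF. NanogN70 libraries had a peak on 5 days, with 0.167 on day 0, 0.375 on day 1, 0.133 on day 3, 0.184 on day 7 and 0.317 on day 12. Nanog libraries had a peak on 2 days, with 0.312 on day 0 and 0.125 on day 8. All time course values lay below the lowest ESC value, and those of the 2 paths overlapped (exact p = 0.219, adjusted p = 0.525). The peaks covered the ESC summit on 2 of the 5 NanogN70 days, days 7 and 12, and on neither Nanog day. On the other days the summit lay 195 to 330 bp further into the gene, and the MEF summit lay 147 bp further in.

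Of the distal Nodal regions, Nodal +5.4 kb (chr10:61423307-61423760) lies in an exon of Nodal and was ESC-only, with values of 0.594, 0.947 and 0.793 (0.778 ± 0.177, SD, n = 3). None of the 16 time course libraries had a peak there. Nodal -18.4 kb (chr10:61399288-61399696, intergenic) was the opposite case and had a peak in all 20 libraries. Its values were 0.696 ± 0.155 (SD, n = 3) in ESCs, 0.538 in MEF, 0.184 to 0.522 in the Nanog path and 0.217 to 0.537 in the NanogN70 path, so the groups overlapped. The remaining ESC-only regions, Nodal -11.8 kb (0.315 ± 0.0647) and Nodal +22.6 kb (0.221 ± 0.0151, in an intron of Eif4ebp2), had no time course peak.

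Tdgf1, the co-receptor gene, had 11 regions and the widest difference in region-days between the paths, with 35 open region-days in the NanogN70 path and 15 in the Nanog path. A region-day is a region with a peak on a given day. The upstream region Tdgf1 -1.5 kb (chr9:110945991-110948371, intergenic at its ESC summit) was ESC-only, with relative pileups of 0.938, 1 and 1.21 (1.05 ± 0.141, SD, n = 3). In the NanogN70 path it had no peak on days 0 and 1, then 1.32 on day 3, 0.696 on day 5, 0.447 on day 7, 0.538 on day 8, no peak on day 10 and 0.317 on day 12. No Nanog library had a peak. The NanogN70 day 3 value alone reached the ESC range, and its peak (79 tags) did not cover the ESC summit: it lay at -667 bp, 806 bp from it. On days 5 and 7 the summit lay at -1371 bp, 102 bp from the ESC summit, and on days 8 and 12 there were 2 peaks, of which 1 covered the ESC summit while the higher summit lay at -442 and -1267 bp. Without day 3, the region was open on 4 NanogN70 days and on no Nanog day. The test gave an exact p of 0.0625 (adjusted p = 0.385), the smallest that 5 differing days allow.

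Inside the gene, Tdgf1 +1.1 kb (chr9:110944898-110945626, in an intron, within the promoter window) had no peak in MEF and none in any ESC library. In the NanogN70 path its relative pileup was 0.875 on day 0, 1 on day 1, 0.317 on day 3, 0.87 on day 5, 0.737 on day 7 and 0.385 on day 8. Days 10 and 12 had no peak. In the Nanog path it was 0.25 on day 0, 0.321 on day 5, 0.263 on day 7 and 0.156 on day 8. The other days had no peak. The NanogN70 value was higher on each of the 6 days on which either path had a peak. The mean over days was 0.523 in the NanogN70 path and 0.124 in the Nanog path, with an exact p of 0.0312 that did not pass after adjustment over all 99904 regions tested (adjusted p = 0.355). It was the smallest p that 6 differing days allow. The peaks did not all lie at 1 place: the highest summit was at 896 to 1076 bp from the start on NanogN70 days 0 to 7 and at 885 bp on day 8, and in the Nanog path at 1121 and 875 bp on days 0 and 5 but at 672 and 667 bp on days 7 and 8.

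The neighbouring region Tdgf1 +1.7 kb (chr9:110944204-110944888, summit in a Tdgf1 UTR) had peaks in 2 ESC libraries (0.5 and 0.421, none in the other) and a weak peak in MEF (0.128). The NanogN70 path had peaks on days 0 to 8, from 0.289 (day 7) up to 0.654 (day 8). The Nanog path had peaks on days 3, 5, 7 and 8, between 0.214 and 0.348. The Nanog peaks lay below both ESC peaks and the NanogN70 peaks on either side of them. NanogN70 was higher on 5 of the 6 days that differed (exact p = 0.0625, adjusted p = 0.385).

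Farther upstream of Tdgf1, the region Tdgf1 -19.1 kb (chr9:110965019-110965406, in an intron of Lrrc2) lay in the same ESC range as the promoter, with 1.03, 1.05 and 1.21 (1.1 ± 0.0958, SD, n = 3). It had no peak in MEF and none in any of the 16 time course libraries. Tdgf1 -14.3 kb, also in Lrrc2, was ESC-only too (0.443 ± 0.209, SD, n = 3) with no time course peak. Between them and the gene, Tdgf1 -8.2 kb (chr9:110953492-110954524, in an intron of Lrrc2) was open in MEF (0.231), in ESCs (0.33 ± 0.0831, SD, n = 3), on 8 NanogN70 days (0.25 to 0.658) and on 6 Nanog days (0.289 to 0.5). The sign-flip test gave p = 0.0391 (exact, adjusted p = 0.385) with the NanogN70 path higher. Downstream, Tdgf1 +23.2 kb (chr9:110922835-110923036, intergenic) had low peaks on 5 NanogN70 days (0.2 to 0.304), on 1 Nanog day (0.188) and in 1 ESC library (0.289). With equal numbers of top-scoring peaks per library, it had no time course peak in either path.

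**Figure D2:**
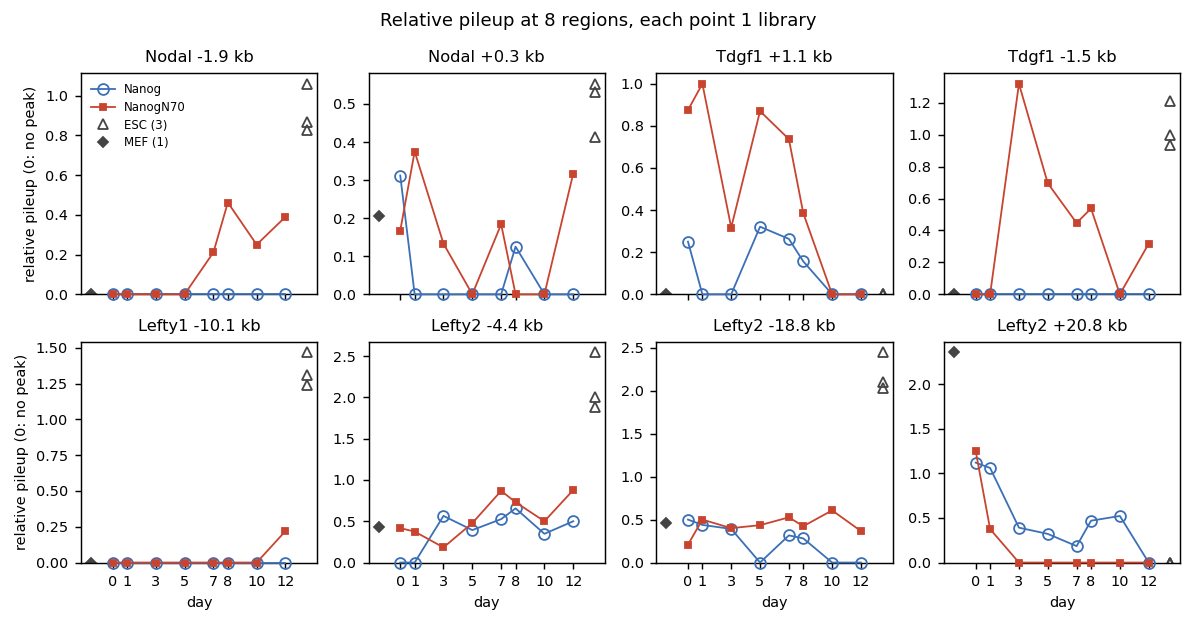
Relative pileup (vertical axis; 0 is no peak) against day for 8 regions, each point 1 library: open blue circles for Nanog, red squares for NanogN70, triangles for the 3 ESC libraries and a diamond for MEF. At Nodal -1.9 kb and Tdgf1 -1.5 kb the Nanog points all lie at 0, at Tdgf1 +1.1 kb the NanogN70 points lie above the Nanog points on days 0 to 8, and at Lefty2 +20.8 kb the Nanog points stay above 0 until day 10.

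Lefty1 and Lefty2 encode the inhibitors and lie in tandem, and 2 regions between them fell in both windows. At Lefty1, 8 of 14 regions were open in ESC and 5 were ESC-only. The strongest was Lefty1 -10.1 kb (chr1:180924446-180925533, intergenic), whose window holds the FOXH1 letters at 2 places. Its relative pileup was 1.47, 1.24 and 1.31 in ESCs (1.34 ± 0.119, SD, n = 3), 0 in MEF and in all 8 Nanog libraries, and 0.22 on NanogN70 day 12, the only time course library with a peak. That value was below every ESC value. Lefty1 -15.2 kb (chr1:180919603-180920064, intergenic) had 0.812, 0.947 and 0.828 in ESCs, no MEF peak, 0.237 and 0.25 on NanogN70 days 7 and 10, and 0.158 on Nanog day 7. These distal regions thus stayed well under their ESC level in both paths.

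At the Lefty1 promoter, the regions on either side of the start site behaved differently. Upstream, Lefty1 -1.2 kb (chr1:180933514-180934078) was ESC-only with 0.969, 0.895 and 0.621, and had 0.219 on Nanog day 8 and 0.263 on NanogN70 day 7 as its only time course peaks. Lefty1 -0.4 kb (chr1:180934084-180934975) was ESC-only with 0.562, 0.632 and 0.517 and had no time course peak. Downstream, Lefty1 +1.9 kb (chr1:180936513-180937100, in an exon of Lefty1) had peaks in MEF (0.462), in all 16 time course libraries and in 2 ESC libraries (0.375 and 0.368). There the Nanog path ranged from 0.304 to 0.87 and the NanogN70 path from 0.25 to 0.5 (exact p = 0.0625, adjusted p = 0.385). Counting any peak within 2 kb, Lefty1 thus had a promoter peak on 8 of 8 days in both paths, and that count rested on the exonic region.

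The Lefty1 exonic region is also the one most affected by sequence copies. Words of 64 bases that occur elsewhere in the genome covered 53.4% of its bases, against 0 in 44 of the 48 regions, and 29.6% of the Lefty2 +1.3 kb region. Of the Lefty1 span, 16.5% lay in words shared with Lefty2. The authors removed reads of low mapping quality, so reads within such words would be lost or placed in either copy; how far that moves the pileup was not tested. Of the other Lefty1 regions, 5 lay at Tmem63a, the next gene downstream, and 1 of them, Lefty1 +7.7 kb, was open in all 20 libraries. Upstream, Lefty1 -3.7 kb was MEF-only (0.462) and was open on 6 days in each path. Its peaks ranged from 0.1 to 1.04 in the NanogN70 path and from 0.237 to 0.625 in the Nanog path, with both maxima on day 0.

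At Lefty2, 7 of 14 regions were open in ESC and 3 were ESC-only. Both of its strongest ESC regions lay upstream and were open in MEF as well. Lefty2 -18.8 kb (chr1:180873854-180874478, intergenic) had 2.03, 2.45 and 2.1 in ESCs (2.19 ± 0.222, SD, n = 3) and 0.462 in MEF. It had peaks on all 8 NanogN70 days (0.208 to 0.607) and on 5 Nanog days (0.281 to 0.5), with no Nanog peak on days 5, 10 and 12 (exact p = 0.102, adjusted p = 0.447). All time course values stayed below a level of 1, and thus below every ESC library.

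Lefty2 -4.4 kb (chr1:180887921-180889753, intergenic) had 1.88, 2.55 and 2 in ESCs (2.14 ± 0.361, SD, n = 3) and 0.436 in MEF. In the NanogN70 path it was 0.417, 0.375, 0.183 and 0.478 on days 0, 1, 3 and 5, and 0.868, 0.731, 0.5 and 0.878 on days 7, 8, 10 and 12. In the Nanog path it had no peak on days 0 and 1 and then ranged from 0.348 to 0.656 (exact p = 0.0938, adjusted p = 0.447). The NanogN70 value was the higher one on 7 of the 8 days, day 3 being the exception, and both paths stayed below the ESC libraries. Without day 3 the exact p was 0.0156 (adjusted p = 0.464). Next to it, Lefty2 -3.1 kb had 0.968 ± 0.117 (SD, n = 3) in ESCs, 0.205 in MEF, 0.183 and 0.346 on NanogN70 days 3 and 8, and no Nanog peak.

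The Lefty2 promoter was the weakest of the 4. Its region, Lefty2 +1.3 kb (chr1:180894040-180894614, in an intron of Lefty2), was ESC-only with 0.406, 0.5 and 0.414 (0.44 ± 0.0521, SD, n = 3). Peaks were found on Nanog day 3 (0.304) and on NanogN70 days 5 and 7 (0.174 and 0.184), and these peaks had scores of 55.7, 57.2 and 94, near the lowest score in the files, 50. Downstream, Lefty2 +10.1 kb (0.837 ± 0.0486, SD, n = 3) was ESC-only with no time course peak.

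The 1 region open on at least 3 more days in the Nanog path was Lefty2 +20.8 kb (chr1:180913571-180914328, intergenic, between Lefty2 and Lefty1). It was MEF-only, with 2.36 in MEF (92 tags) and no peak in any ESC library. In the Nanog path it was 1.12 on day 0, 1.06 on day 1, 0.391 on day 3, 0.321 on day 5, 0.184 on day 7, 0.469 on day 8 and 0.522 on day 10. Day 12 had no peak. In the NanogN70 path it was 1.25 on day 0 and 0.375 on day 1, with no peak from day 3 on. Both paths were below MEF from day 0, and from day 5 on the NanogN70 path had no peak while the Nanog path had one on each day up to day 10. Over days 3, 5, 7, 8, 10 and 12 the summed relative pileup of the fibroblast markers was 2.78, 4.87, 4.05, 3.08, 2.71 and 2.83 in the NanogN70 path and 6.35, 7.5, 6, 6.62, 5.39 and 2.96 in the Nanog path, and its part in this difference was not tested. The sign-flip p was 0.0312 (exact), and it did not pass after adjustment (adjusted p = 0.355). Without day 3 it was 0.0625.

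**Figure D3:**
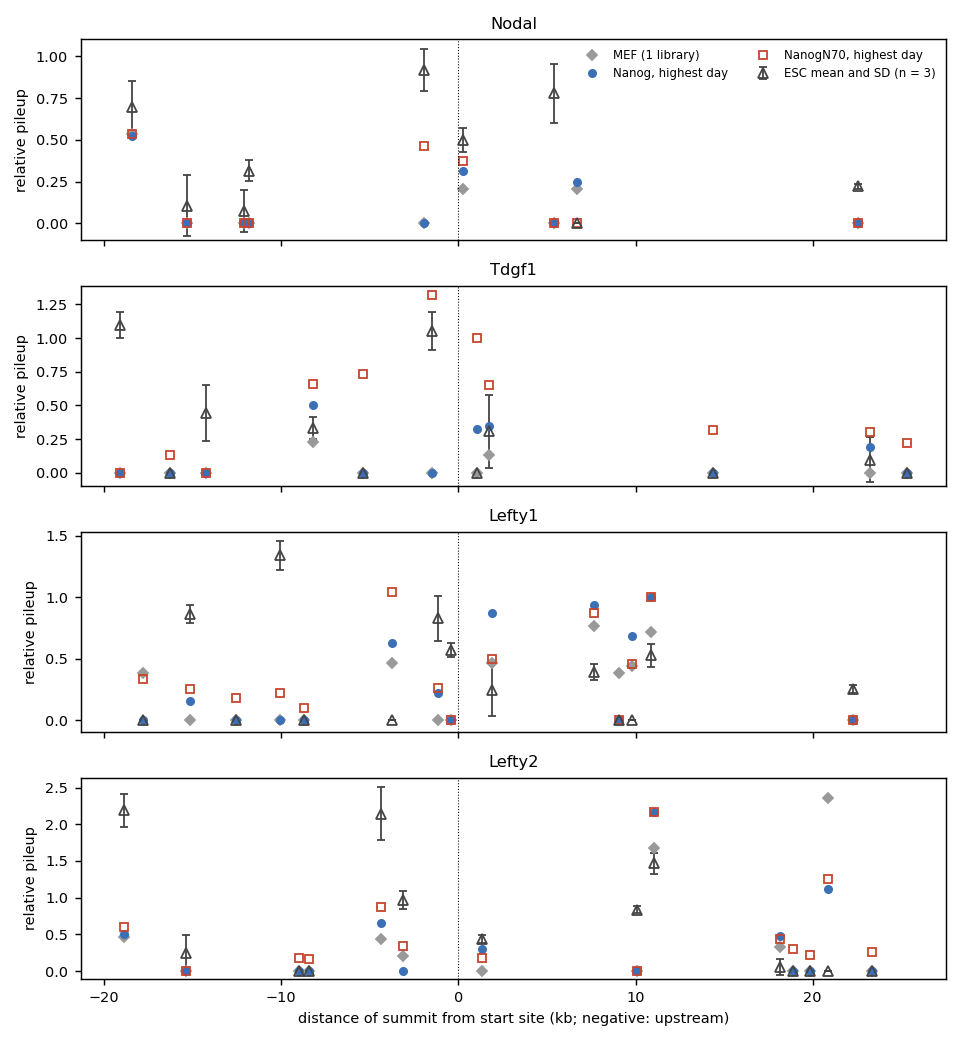
Relative pileup (vertical axes) against the distance of the region summit from the start site (horizontal axis, kb) for the regions of each gene: triangles with bars are the ESC mean and SD (n = 3), grey diamonds MEF, blue circles the highest day of the Nanog path and red squares the highest day of the NanogN70 path. At Lefty2 -18.8 kb and -4.4 kb the ESC means of 2.19 and 2.14 lie above the highest NanogN70 days of 0.607 and 0.878, whereas at Tdgf1 -1.5 kb the highest NanogN70 day is 1.32 (day 3) and the next is 0.696.

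Taking the highest peak within 2 kb of any annotated start site, the ESC promoter levels in relative pileup were 1.05 ± 0.141 for Tdgf1, 0.92 ± 0.126 for Nodal, 0.828 ± 0.183 for Lefty1 and 0.44 ± 0.0521 for Lefty2 (SD, n = 3). The ESC libraries of Tdgf1, Nodal and Lefty1 overlapped, so their order is within the spread, and all 3 of Lefty2 lay below all of the others. In MEF the order was Lefty1 (0.462), Nodal (0.205) and Tdgf1 (0.128), with no peak at Lefty2; the Lefty1 value is that of the exonic region with sequence copies. A promoter peak was found on 7 NanogN70 and 5 Nanog days at Tdgf1, on 6 and 2 at Nodal, on 8 and 8 at Lefty1 and on 2 and 1 at Lefty2. At Tdgf1 these counts pool 3 regions. Its ESC level is that of Tdgf1 -1.5 kb, which had no peak on NanogN70 days 0 and 1 or in any Nanog library. The NanogN70 values on days 0, 1, 5 and 7 were those of Tdgf1 +1.1 kb, which had no ESC peak. With a minimum score of 100, the Tdgf1 promoter had a peak on 7 NanogN70 days and on no Nanog day. The Nodal promoter had one on 4 and on none, that of Lefty1 on 5 and 5, and that of Lefty2 on 0 and 0. At the Nodal promoter, the values from day 7 on were 0.211, 0.462, 0 and 0.39 in the NanogN70 path and 0, 0.125, 0 and 0 in the Nanog path. The day 10 peak of Nodal -1.9 kb lay wholly beyond 2 kb and is therefore not in this count.

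Across all 48 regions, 128 region-days were open in the NanogN70 path and 90 in the Nanog path. By gene these were 17 and 11 at Nodal, 35 and 15 at Tdgf1, 37 and 33 at Lefty1, and 39 and 31 at Lefty2. Over all regions of the genome the NanogN70 path had 1.13 times the region-days of the Nanog path, so part of this excess was shared with the genome. Without day 3 the region-days were 106 and 77, and with a minimum score of 100 they were 83 and 59. Library by library, 22 regions had a peak on NanogN70 day 3, the most in the time course, and 7 on Nanog day 12, the fewest. Of the 22, 7 were found in that library alone. Over all regions the shares open in these libraries were 22.8% and 12.2%, and the highest and lowest were those of NanogN70 day 0 (28.3%) and NanogN70 day 10 (11.3%).

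Of the 15 ESC-only regions, 6 had a peak on some NanogN70 day (30.8% of all ESC-only regions) and 3 on some Nanog day (17.3%). The remaining 9 of 15 had no peak in the time course, as had 66.1% of all ESC-only regions. ESC-only region-days came to 15 in the NanogN70 path and to 3 in the Nanog path, and 9 of those 15 were at Nodal -1.9 kb and Tdgf1 -1.5 kb. The mean share of ESC-only regions open per day was 12.5% and 2.5% near these genes and 9.55% and 5.1% over the genome. NanogN70 day 7 had the most, with 5 of 15 regions, followed by day 12 with 3, while no Nanog library had more than 1. Over all ESC-only regions of the genome the same libraries led, with 15.4% open on NanogN70 day 7, 14.2% on NanogN70 day 12 and, in the Nanog path, 9.08% on day 7. The plot of open regions by day shows the NanogN70 line above the Nanog line for ESC-only regions from day 5 on, with both at 0 on days 0 and 1.

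**Figure D4:**
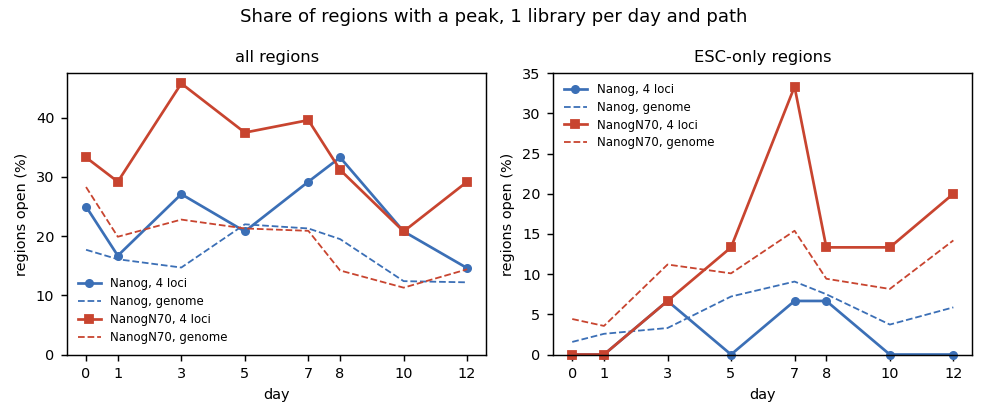
Percentage of regions with a peak (vertical axes) against day, for all regions (left) and ESC-only regions (right), in the Nanog path (blue) and the NanogN70 path (red), with 1 library per point. Solid lines are the regions near the 4 genes and dashed lines all regions of the genome; 5 of the 15 ESC-only regions near the 4 genes had a peak on NanogN70 day 7, against 1 on Nanog day 7.

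A region was called different between paths where it was open on at least 3 more days in 1 of them. Of the 36 members with a time course peak, 5 were called in favour of NanogN70 (6.39% of all regions with a time course peak) and 1 in favour of Nanog (5.45%). The 5 were Nodal -1.9 kb (4 days against 0), Nodal +0.3 kb (5 against 2), Tdgf1 -1.5 kb (5 against 0), Tdgf1 +23.2 kb (5 against 1) and Lefty2 -18.8 kb (8 against 5), and the 1 was Lefty2 +20.8 kb (7 against 2). Without day 12, 3 were called for NanogN70, since Nodal +0.3 kb and Lefty2 -18.8 kb then differed by 2 days. Without day 3, 4 were called, with Nodal +0.3 kb lost. With a minimum score of 100 or with equal numbers of top-scoring peaks, 3 of the 5 were called again: Nodal +0.3 kb and Tdgf1 +23.2 kb were not, and Tdgf1 +1.1 kb and Tdgf1 +1.7 kb were called instead. With a minimum score of 100 the 1 region called for Nanog was Lefty1 +10.9 kb in place of Lefty2 +20.8 kb.

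The test of each region, an exact two-sided sign-flip test of the daily differences in relative pileup over the 8 days, called no region of the genome at an adjusted p of 0.05 (Benjamini-Hochberg over 99904 regions with a peak in at least 3 time course libraries). With 8 differing days the smallest p is 0.00781, with fewer it is larger, and 15610 regions would have had to reach it, where 1720 did. At an unadjusted p up to 0.05 there were 3.88% of regions with NanogN70 higher and 6.17% with NanogN70 lower, in numbers 3879 and 6169. This split depends on the scaling: dividing by the median of all peaks of a library gave 4275 higher and 4394 lower, and percentiles of the peak score gave 4603 and 5081. Of the 19 members that could be tested, 4 had an unadjusted p up to 0.05: Tdgf1 +1.1 kb and Tdgf1 -8.2 kb with NanogN70 higher, and Lefty2 +20.8 kb and Lefty1 +10.9 kb with Nanog higher. Without day 3 the p-values of these 4 were 0.0625, 0.0625, 0.0625 and 0.0781. Lefty1 +10.9 kb lies in an intron of Tmem63a and had 0.5 to 1 in the Nanog path and up to 1 in the NanogN70 path, with no peak on day 3 (exact p = 0.0391, adjusted p = 0.385). The mean was higher in the NanogN70 path at 14 of the 19 (51.9% of all regions tested). Each path is 1 time course sampled repeatedly, with 1 library a day, so these p-values measure the spread between days and not between cultures.

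Other genes of the pathway were examined at their promoters in the same way, 24 genes in all. The list was ligands, a co-receptor, receptors, processing enzymes, inhibitors, transducers and target genes. Promoter peaks were found in MEF at 21 of 24 (70.3% of protein-coding genes), in at least 2 ESC libraries at 24 of 24 (72.1%), and in all 16 time course libraries at 12 of 24 (54.0%). Only Gdf3, Cer1 and T had a promoter peak in ESCs and not in MEF (5.45% of genes), and T, the mesoderm regulator Brachyury, had none in the time course (23.9% of genes). Foxa2, an endoderm regulator, had a promoter peak on at least 3 more days with NanogN70, on 7 days against 3 (2.09% of genes), and no gene of the 24 had the opposite difference (1.08%).

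By role, the intracellular transducers and cofactors were the most uniformly open: Smad2, Smad3, Smad4, Foxh1 and Skil had promoter peaks in all 20 libraries. Smad3, a receptor-activated transducer, had 0.477 ± 0.0728 (SD, n = 3) in ESCs, against 1.38 in MEF, 1.21 to 1.75 in the Nanog path and 1.13 to 2 in the NanogN70 path, so all 3 ESC libraries lay below the others (chosen for description after its values were seen). Of the 4 receptors, Acvr1b, Acvr2a and Acvr2b had promoter peaks in all 16 time course libraries, and Acvr1c on 6 days in each path. Among the ligands, Gdf1 had a peak on all 16, and Gdf3, with 1.27 ± 0.111 (SD, n = 3) in ESCs and none in MEF, on 7 Nanog and 6 NanogN70 days. Cfc1, the co-receptor related to Tdgf1, had a peak on 2 Nanog and 4 NanogN70 days. Of the processing enzymes, which cleave the Nodal precursor, Furin had a peak on all 16 and Pcsk6 on 5 days in each path. Of the other inhibitors, Tmeff1 had a peak on all 16 and Cer1 on Nanog day 5 alone. Of the target genes with few days, Otx2 had peaks on NanogN70 days 7 and 8 alone, and T had none. A low number of days was thus seen at Lefty2, Cer1, Otx2 and T, and the widest difference between paths among these genes was that of Nodal and Foxa2, 4 days each.

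**Figure D5:**
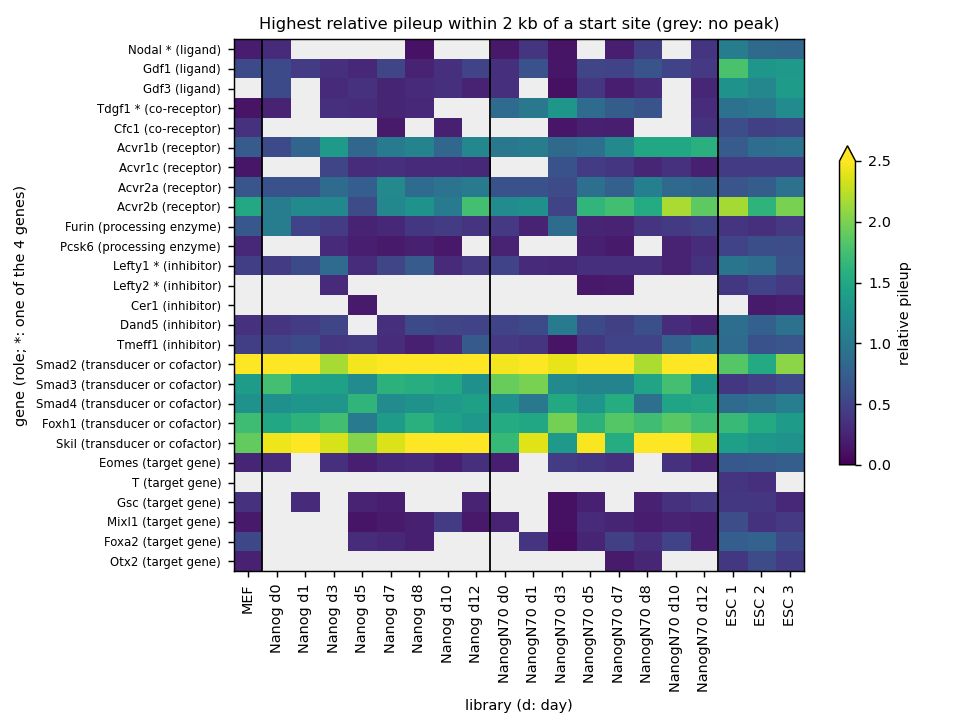
Highest relative pileup (colour, grey is no peak) within 2 kb of a start site for genes of the pathway (rows, with their role, 1 gene not shown; stars mark Nodal, Tdgf1, Lefty1 and Lefty2) in the 20 libraries (columns). Smad2 and Skil are bright in MEF and the time course, and the row of T is grey outside 2 ESC libraries.

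The genes whose promoter profile was most like that of each member were found by Pearson correlation of log2(1 + relative promoter pileup) over the 20 libraries, which share depth and include 3 ESC replicates, among protein-coding genes with a promoter peak in at least 3 libraries. For Nodal they were Hormad2 (r = 0.905), Ms4a10 (0.900) and Prr19 (0.900). For Tdgf1 they were Arhgap9 (0.905), Wee2 (0.867) and Ggta1 (0.866), and for Lefty1 Manba (0.866), Ackr2 (0.810) and Cx3cl1 (0.802). For Lefty2 they were Klk11 (0.927), Ankrd65 (0.922) and Htr3b (0.898). Among the 4 members, r was 0.702 between Lefty1 and Lefty2, 0.642 between Nodal and Lefty2, 0.609 between Nodal and Tdgf1 and 0.182 between Tdgf1 and Lefty1. All of the 12 listed genes had promoter peaks in all 3 ESC libraries. The highest value of the Tdgf1 profile was that of NanogN70 day 3 (1.32), and the correlations were not repeated without that library.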

How the data were processed

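ATAC-seq was done on 20 mouse libraries. Per the submitters' processing notes and the methods, the authors trimmed reads with Trim Galore 0.6.4, aligned them to mm10 with Bowtie2 2.4.5, used SAMtools 1.16.1 to drop mitochondrial, repetitive and poorly mapped reads, and called peaks per library with MACS 1.4.2 (duplicates kept, no model, no input named). The authors deposited a peak score (-10 times log10 of p, lowest 50) and the summit signal (pileup coverage in tags, not scaled to depth). The sources differ on the number of cells used per library. More peaks pass the threshold in a deeper library.

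Peaks were merged, annotated with GENCODE M21 and tested with scripts in Python 3.11.15 and numpy 2.4.6, checked on simulated data. Peaks on all 21 chromosomes ended within GRCm38 lengths; 14 other sequence names were not annotated. All regions of the 4 genes were counted. Described singly were promoter regions, the 2 distal regions per gene highest in ESC, and regions called by the rule of 3 days; Lefty2 +10.1 kb, -3.1 kb, Tdgf1 +1.7 kb and a few others were named after their values were seen. The 3 genes most alike and pathway genes with the most and fewest days were named; some items are not reported here. Members, lists and rules were chosen with earlier results of these data known. Groups came from sample titles; alternatives are given in the closing section.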

Additional observations from a re-analysis of the deposited data

How the results depend on the processing

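Of 133 values recomputed under other settings, 104 stayed within 1.5 times the reported one. With a minimum score of 100, region-days were 83 (NanogN70) and 59 (Nanog), promoter days at Nodal 0 and at Tdgf1 0 for Nanog, at Lefty1 5 and 5, and at Lefty2 0 and 0. With the 44126 top-scoring peaks of each library, ESC-open regions numbered 15 of 34, and promoter days were 3 (NanogN70) and 0 (Nanog) at Nodal, 1 (Nanog) at Tdgf1, and 0 and 0 at Lefty2. Under both settings 5 regions were called for NanogN70, 3 of them shared with the reported 5, and 1 for Nanog. With a region open only where peaks cover at least 50% of it, region-days were 74 and 41, and 2 regions were called for Nanog. Within 10 kb there were 27 regions, 17 open in ESC, 8 ESC-only, 3 called for NanogN70 and 0 for Nanog. Within 50 kb there were 99, 52 and 29, with 248 and 202 region-days and 4 called for Nanog. Leaving out 1 day gave 3 to 5 calls for NanogN70. No region of the genome was called under any setting of the sign-flip test (lowest adjusted p 0.336 to 0.83); at an unadjusted p up to 0.05 there were 10048 in the reported test and 5408 to 10048 under the others. The sign-flip test pairs the paths by day; no other pairing was tried. The cause of these shifts was not tested. Each path has 1 library per day, MEF has 1 library and depth is unknown, so a missing peak is not a measured closure.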
